A study of Mus musculus with 9 samples.

Results

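Genes of DNA replication and S phase were measured on 9 arrays of cerebellar RNA from C57BL/6 mice at postnatal day 5. Of the mice, 3 were SmoA2 mutants, 3 were labelled Smo/Smo mutants and 3 were wild type. Per the design text, the SmoA2 and SmoA1 transgenes encode constitutively active forms of Smoothened under a fragment of the ND2 (Neurod2) promoter that is active in granule neuron precursors. The sample labels do not mention SmoA1 and give the tissue as brain. Smo/Smo was taken as that line, since it is a name in use for mice that carry SmoA1 on both copies of the locus. The list held 38 genes, and each was represented by the probe set that carried its symbol alone and had the highest mean log2 intensity over the 9 arrays. Of the 38, 31 had such a probe set, out of 19147 genes tested in all. The other 7 (Gins1, Gins2, Pcna, Rpa2, Fen1, Ccne2 and Uhrf1) were not analysed here.

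Replication begins with licensing in G1. The origin recognition complex, with its subunit Orc1, works with Cdc6 and Cdt1 to load the ring of Mcm2, Mcm3, Mcm4, Mcm5, Mcm6 and Mcm7 onto DNA, and geminin (Gmnn) holds Cdt1 in check. In S phase the ring joins Cdc45 and the GINS complex to become the active helicase, and primase, polymerases, clamp loader and ligase copy the strands behind it. Many of these genes are switched on together by E2F transcription factors late in G1. In the early postnatal cerebellum, granule neuron precursors of the external granule layer are the main dividing cells, and Sonic hedgehog, through Smoothened, is their mitogen. In tissue RNA, a change in the number of dividing cells and a change in RNA per cell cannot be told apart.

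Promoter sequence was read as a further feature of these genes. Many of them are known as genes switched on by E2F, so their share of E2F words is not independent of their choice. RefSeq windows of 300 bases on GRCm38.p6, 250 before and 50 after the annotated start, were at hand for 27 of the 31 genes. They were searched on both strands for the E2F words TTTCCCGC, TTTCGCGC, TTTGCCGC and TTTGGCGC, which can overlap one another, and for CCAAT, the core of NF-Y sites. At least 1 E2F word stood in a window of 13 of the 27 genes (48.1%), against 2.6% of 27025 genes with a window. CCAAT stood in 17 of the 27 (63.0%), against 41.1% of all. The 4 upstream sequences below were picked as examples from the genes with an E2F word, and not by size of difference alone. Capitals mark the E2F words, lower case the rest, and each runs from 5′ to 3′ on the strand of its gene, up to the base before the start. They lie at chr1:128359706-128359955 (minus strand) for Mcm6, chrX:93632156-93632405 (minus) for Pola1, chr8:75109259-75109508 (plus) for Mcm5 and chr11:98907901-98908150 (plus) for Cdc6.
Mcm6: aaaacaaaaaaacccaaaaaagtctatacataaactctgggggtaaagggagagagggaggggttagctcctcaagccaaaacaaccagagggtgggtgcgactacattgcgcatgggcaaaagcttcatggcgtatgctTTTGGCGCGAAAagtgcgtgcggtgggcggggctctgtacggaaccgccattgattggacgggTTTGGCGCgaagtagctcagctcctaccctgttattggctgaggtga
Pola1: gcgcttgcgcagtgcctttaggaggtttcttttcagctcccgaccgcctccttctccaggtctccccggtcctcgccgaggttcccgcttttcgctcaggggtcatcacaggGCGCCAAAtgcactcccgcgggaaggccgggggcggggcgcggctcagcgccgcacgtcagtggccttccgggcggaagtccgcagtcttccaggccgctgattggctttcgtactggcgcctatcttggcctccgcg
Mcm5: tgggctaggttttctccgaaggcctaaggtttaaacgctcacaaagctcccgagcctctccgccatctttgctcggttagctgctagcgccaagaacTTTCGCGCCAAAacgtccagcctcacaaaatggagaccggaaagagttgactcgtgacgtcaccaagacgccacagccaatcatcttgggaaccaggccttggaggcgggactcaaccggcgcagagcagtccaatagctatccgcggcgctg
Cdc6: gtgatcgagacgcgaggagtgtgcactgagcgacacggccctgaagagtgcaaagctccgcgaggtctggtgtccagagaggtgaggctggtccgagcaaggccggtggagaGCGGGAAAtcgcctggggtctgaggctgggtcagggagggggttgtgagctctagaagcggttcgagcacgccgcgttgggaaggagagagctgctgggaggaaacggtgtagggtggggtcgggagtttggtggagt

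The Mcm6 sequence, shown because Mcm6 had the lowest adjusted p of the 31 genes in SmoA2 against wild type, holds 3 E2F words. The first, a TTTGGCGC that begins 110 bases before the start, overlaps a TTTCGCGC on the other strand, and another TTTGGCGC begins 47 bases before the start, between ATTGG motifs (CCAAT on the other strand) at 57 and 14 bases. Mcm5 holds an overlapping pair of words, from 153 and 149 bases before its start. Pola1 and Cdc6 have 1 word each, both first met 138 bases before the start and read on the opposite strand. Other genes with larger rises in SmoA2 against wild type than Pola1 and Mcm5 held no E2F word. The window of Tk1 (log2 fold change 0.23) matched neither motif, and those of Mcm10 (0.22) and Cdc45 (0.21) held CCAAT only. Such matches are letters in a window and say nothing of binding in these mice. On the log2 scale, the median fold change of SmoA2 against wild type was 0.13 in the 13 genes with an E2F word and 0.07 in the 14 without, while 9 of the 13 and 11 of the 14 lay above 0. In SmoA2 against Smo/Smo both medians were 0.07. These are descriptions with no test.

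The cerebellar origin of the RNA showed in its markers. Zic1, a transcription factor of the granule lineage, had log2 intensities of 13.12 to 13.25 over all 9 arrays, while 3 of 5 forebrain markers averaged no more than 5.57, the highest value of Y-linked probe sets in the female mice. No replication gene fell that low, and their means ran between 6.3 and 11.9. Only Cdc6 and Cdk2 averaged under 7. Among the arrays, wild type replicate 3 had little of the choroid plexus transcript Ttr (4.95, against 11.4 and 11.3 in the other wild types), and SmoA2 replicate 3 received the lowest limma array weight (0.386). Sexes, read from Xist, were mixed in each group, with 2 males and 1 female in SmoA2 and in Smo/Smo, and 1 male and 2 females in wild type.

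In SmoA2 against wild type, the question was whether active Smoothened came with more transcripts of the replication machinery at this age. The differences were small. None of the 31 genes was called at an adjusted p under 0.05 in limma, where 2.69% of all genes were called (0.961% higher and 1.73% lower). At an unadjusted p under 0.05, 5 of 31 passed (16.1%), namely Mcm6, Mcm7, Cdc45, Pola1 and Tk1, against 14.8% of all genes. All 5 were higher in SmoA2, where 6.61% of all genes were higher and 8.18% lower at that level. Of the 31, 24 lay above 0 in log2 fold change (77.4%), against 52.1% of all genes, and their median was 0.094, a 1.07-fold difference, against 0.006 over all genes. The 3 SmoA2 arrays stood above all 3 wild type arrays in 8 genes (25.8%, against 8.89% of all genes) and below them in 0 (against 10.2%). The 95% confidence intervals, each taken for 1 gene on the probe set used, ran from -0.33 to 0.44 over the 31 genes. A change of 0.5 or more on the log2 scale lay outside every one of them. Other probe sets of the same genes are not covered by these bounds.

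**Figure D1:**
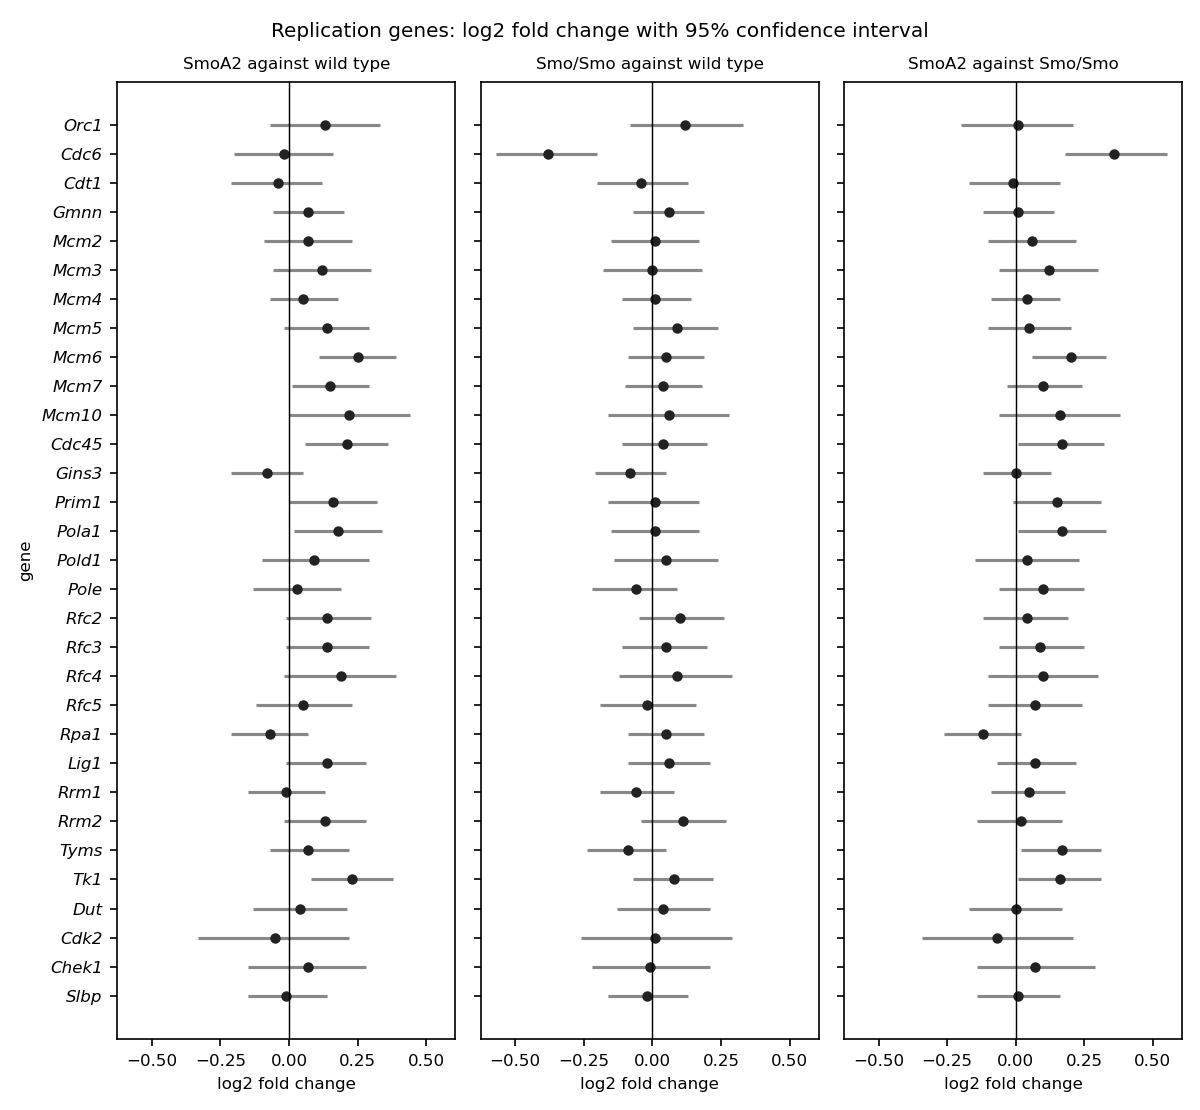
Log2 fold change (x axis) of each of the 31 replication genes (y axis, grouped by role) in the 3 comparisons, as points with 95% confidence intervals from limma. All intervals of SmoA2 against wild type lie between -0.33 and 0.44, and Cdc6 stands apart in both comparisons with Smo/Smo.

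**Figure D2:**
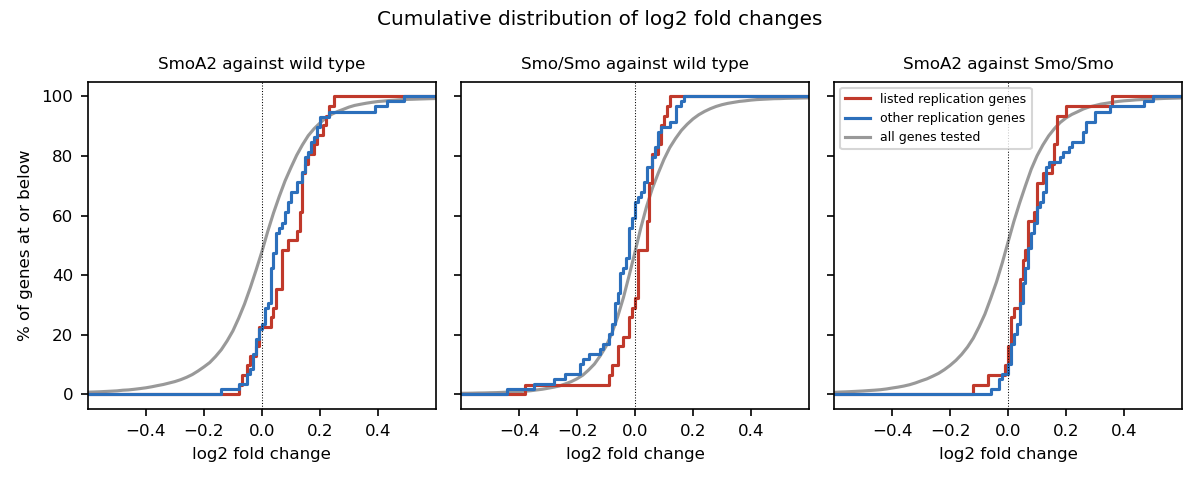
Share of genes (y axis, percent) at or below a log2 fold change (x axis), for the 31 listed replication genes, 59 other replication genes and all 19147 genes tested. In SmoA2 against wild type the median of the listed genes is 0.094 and that of all genes 0.006.

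Among the licensing genes, Mcm6 had the lowest adjusted p in SmoA2 against wild type. Its log2 intensity was 10.69, 10.68 and 10.81 in SmoA2, 10.49, 10.53 and 10.55 in Smo/Smo, and 10.50, 10.52 and 10.41 in wild type. All 3 SmoA2 arrays were above the other 6, and Smo/Smo overlapped wild type. SmoA2 exceeded wild type 1.19-fold (0.25 ± 0.06 on the log2 scale, where the error is the SE and n = 3 in each group; limma adjusted p = 0.0709) and Smo/Smo 1.15-fold (0.20 ± 0.06, adjusted p = 0.153). A second Mcm6 probe set gave 0.31 against wild type (unadjusted p = 0.0282). Mcm6 passed the threshold in limma when genes with a mean log2 under 6 were left out (adjusted p = 0.0271) or with an intensity trend and robust eBayes (0.021). Without single arrays its adjusted p lay between 0.0978 and 0.186.

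The other subunits of the ring differed less. Mcm7 had 12, 11.87 and 12.03 in SmoA2, against 11.76, 11.88 and 11.82 in wild type. These groups overlapped, and the difference was 0.15 ± 0.06 (unadjusted p = 0.0401, limma adjusted p = 0.307). Mcm5 had 10.66, 10.65 and 10.84 in SmoA2, against 10.56, 10.63 and 10.55 in wild type, without overlap but with an adjusted p of 0.401. Mcm3 lay close to wild type in SmoA2 replicates 1 and 2 (10.57 and 10.56) and higher in replicate 3 (10.85), against 10.52 to 10.56 in wild type. Mcm2 and Mcm4 gave log2 fold changes of 0.07 and 0.05.

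The loading factors did not share a direction. Orc1, the ATPase subunit of the origin complex, had 7.82, 7.46 and 7.64 in SmoA2, 7.64, 7.61 and 7.66 in Smo/Smo, and 7.56, 7.41 and 7.56 in wild type. Only the Smo/Smo arrays cleared the wild type range, and neither mutant was called (log2 fold changes of 0.13 and 0.12, limma adjusted p = 0.561 and 0.768). Cdt1 had 9.76, 9.56 and 9.80 in SmoA2, 9.75, 9.73 and 9.67 in Smo/Smo, and 9.77, 9.70 and 9.78 in wild type. Its groups overlapped throughout, at -0.04 in either mutant against wild type. Geminin, which restrains Cdt1, stood at 0.07 in SmoA2 and 0.06 in Smo/Smo.

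Cdc6, the loader that recruits the ring to origins, was 1 of 3 genes, with Tyms and Rpa1, in which the Smo/Smo arrays all lay beyond the other 6. Its log2 intensity was 6.37, 6.51 and 6.37 in SmoA2, 6.06, 6.17 and 5.94 in Smo/Smo, and 6.36, 6.42 and 6.54 in wild type. Every Smo/Smo array lay below the other 6, while SmoA2 and wild type overlapped (-0.02 ± 0.08). Smo/Smo was 1.31-fold lower than wild type (log2 fold change -0.38 ± 0.08, 95% confidence interval -0.57 to -0.20). That was the largest difference among the 31 genes in size, and it had an unadjusted p of 0.00101 and a limma adjusted p of 0.133. SmoA2 exceeded Smo/Smo by 0.36 ± 0.08 (adjusted p = 0.0532). With genes of low mean left out, this last difference was called (adjusted p = 0.0228). Cdc6 had a single probe set and the lowest mean of the 31, though above the background of Y-linked probe sets.

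**Figure D3:**
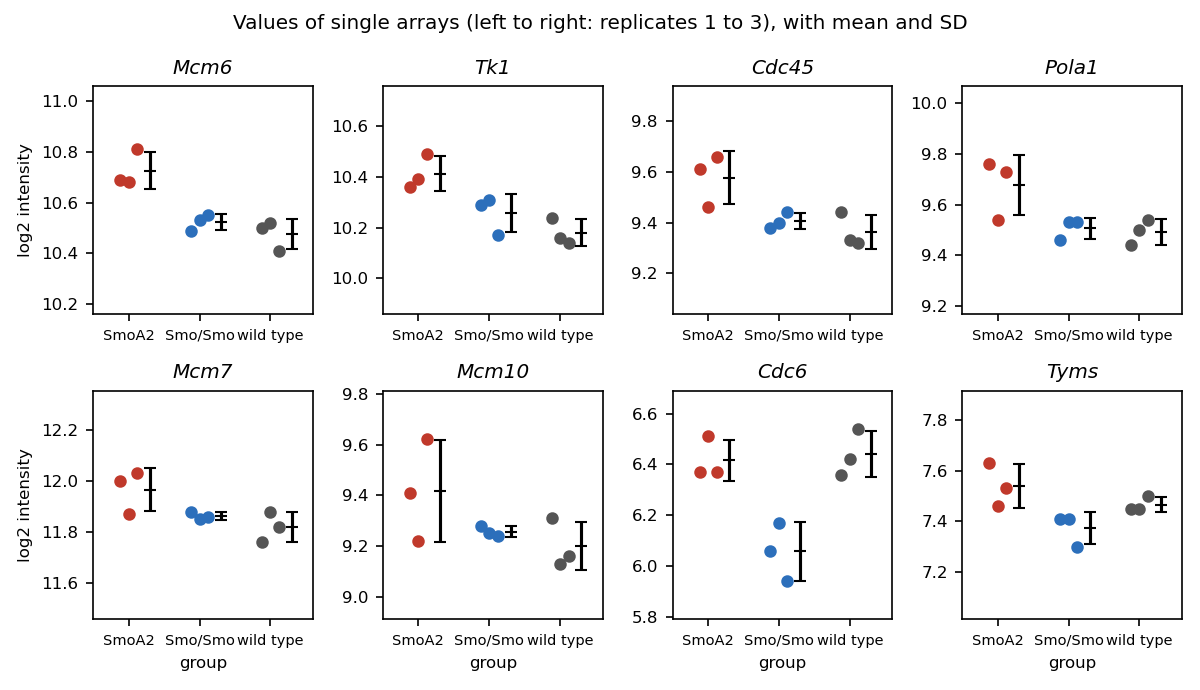
Log2 intensity (y axis, a span of 0.9 in each panel) of 8 replication genes in the 3 arrays of each group (x axis), with the mean and SD beside the points. Mcm6, Tk1, Cdc45 and Pola1 have all SmoA2 arrays above wild type, and Cdc6 has all Smo/Smo arrays below both other groups.

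Of the genes that turn the loaded ring into a helicase, 2 of 3 were higher in SmoA2 in their means. Cdc45, the helicase subunit that marks firing origins, had 9.61, 9.46 and 9.66 in SmoA2, 9.38, 9.40 and 9.44 in Smo/Smo, and 9.44, 9.33 and 9.32 in wild type. SmoA2 cleared both other groups, by 0.21 ± 0.07 against wild type (limma adjusted p = 0.18) and 0.17 ± 0.07 against Smo/Smo (0.305). Mcm10, which activates the helicase, had 9.41, 9.22 and 9.62 in SmoA2, 9.28, 9.25 and 9.24 in Smo/Smo, and 9.31, 9.13 and 9.16 in wild type. Its SmoA2 arrays had an SD of 0.20, with Rfc4 the highest of the 31, and overlapped wild type (0.22 ± 0.10, adjusted p = 0.341). Gins3, a GINS subunit, had 9.12, 9.11 and 9.13 in SmoA2, 9.11, 9.11 and 9.13 in Smo/Smo, and 9.27, 9.20 and 9.12 in wild type. Both mutants stood at -0.08 ± 0.06 against wild type and overlapped it.

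The 4 genes of polymerases and primase all had higher means in SmoA2, and none was called. Pola1, the catalytic subunit of the priming polymerase alpha, had 9.76, 9.54 and 9.73 in SmoA2, 9.46, 9.53 and 9.53 in Smo/Smo, and 9.44, 9.50 and 9.54 in wild type. In unrounded values the SmoA2 arrays stood above those of both other groups, though replicate 2 did so only by a margin lost in rounding. The differences were 0.18 ± 0.07 against wild type (limma adjusted p = 0.264) and 0.17 ± 0.07 against Smo/Smo (0.307). A second Pola1 probe set gave 0.16 in SmoA2 and 0.24 in Smo/Smo against wild type, so that the sign of the difference between the mutants depended on the probe set. Prim1, the primase subunit that makes the RNA primer, had 11.50 and 11.55 in SmoA2 replicates 1 and 3 and 11.29 in replicate 2, against 11.28 to 11.30 in wild type. Pole, of leading strand polymerase epsilon, had 9.59, 9.47 and 9.67 in SmoA2, 9.41, 9.56 and 9.48 in Smo/Smo, and 9.50, 9.53 and 9.60 in wild type, and overlapped in every comparison. Pold1, of lagging strand polymerase delta, stood at 0.09 in SmoA2 and 0.05 in Smo/Smo.

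Subunits of the clamp loader, replication factor C, were measured without the clamp itself. Rfc2 had 10.33, 10.35 and 10.47 in SmoA2, 10.45, 10.34 and 10.25 in Smo/Smo, and 10.25, 10.25 and 10.22 in wild type. SmoA2 cleared wild type by 0.14 ± 0.07 (limma adjusted p = 0.381), while Smo/Smo reached down to it (0.10 ± 0.07, adjusted p = 0.741). Rfc3 also cleared wild type in SmoA2 (0.14 ± 0.07), and Rfc4 did so in Smo/Smo (0.09 ± 0.09) but not in SmoA2, where replicate 2 (10.80) lay within wild type and replicate 3 reached 11.20. Rfc5 gave 0.05 and -0.02 in SmoA2 and Smo/Smo. Rpa1, the large subunit that coats single-stranded DNA, ran the other way, with 9.88, 9.79 and 9.99 in SmoA2, 10, 10.02 and 10 in Smo/Smo, and 9.91, 9.98 and 9.97 in wild type. Its SmoA2 arrays stayed below those of Smo/Smo, at -0.12 ± 0.06 (adjusted p = 0.454). Lig1, which seals Okazaki fragments, had 9.80, 9.80 and 9.98 in SmoA2, 9.84, 9.73 and 9.79 in Smo/Smo, and 9.73, 9.73 and 9.72 in wild type. Both mutants lay above wild type without overlap in unrounded values, and neither was called (0.14 ± 0.07 and 0.06 ± 0.07, adjusted p = 0.385 and 0.865).

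Among the genes of nucleotide supply, Tk1 differed most. This cytosolic thymidine kinase, whose expression follows S phase, had 10.36, 10.39 and 10.49 in SmoA2, 10.29, 10.31 and 10.17 in Smo/Smo, and 10.24, 10.16 and 10.14 in wild type. SmoA2 stood above all other arrays, 1.18-fold over wild type (log2 fold change 0.23 ± 0.07, limma adjusted p = 0.12) and by 0.16 ± 0.07 over Smo/Smo (0.314). The subunits of ribonucleotide reductase, which makes deoxyribonucleotides, did not move alike. Rrm2, the subunit that limits the enzyme through the cycle, had 9.35, 9.26 and 9.14 in SmoA2, 9.18, 9.29 and 9.23 in Smo/Smo, and 9.18, 9.07 and 9.11 in wild type. Its means were 0.13 and 0.11 above wild type, and SmoA2 overlapped wild type. Rrm1 gave -0.01 in SmoA2 and -0.06 in Smo/Smo. Tyms, thymidylate synthase, had 7.63, 7.46 and 7.53 in SmoA2, 7.41, 7.41 and 7.30 in Smo/Smo, and 7.45, 7.45 and 7.50 in wild type. The mutant means lay on opposite sides of the wild type mean (0.07 in SmoA2 and -0.09 in Smo/Smo), and SmoA2 overlapped wild type. SmoA2 exceeded Smo/Smo by 0.17 ± 0.06 (limma adjusted p = 0.261). Dut, which clears dUTP, gave 0.04 in each mutant.

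The 3 genes of S phase control had a median log2 fold change of -0.006 in SmoA2 against wild type. Cdk2, the kinase partner of cyclins E and A, had 6.25, 6.60 and 6.34 in SmoA2, 6.59, 6.34 and 6.44 in Smo/Smo, and 6.64, 6.45 and 6.25 in wild type, with full overlap and the widest confidence interval of the list in SmoA2 against wild type (-0.33 to 0.22). Chek1, the checkpoint kinase of stalled forks, had 10.14, 10.06 and 10.29 in SmoA2, 9.95, 10.13 and 10.20 in Smo/Smo, and 10.09, 9.97 and 10.23 in wild type. Slbp, which binds the stem-loop of histone mRNAs, had 11.50, 11.42 and 11.54 in SmoA2, 11.46, 11.45 and 11.51 in Smo/Smo, and 11.50, 11.39 and 11.58 in wild type. Neither gene separated any pair of groups, and their differences lay between -0.02 and 0.07.

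The SmoA2 mice differed among themselves in these genes. Taken against the wild type mean of each gene, the 31 genes had a median of 0.07 in SmoA2 replicate 1, 0.00 in replicate 2 and 0.19 in replicate 3. The corresponding medians over all genes were -0.01, 0.01 and 0.01. In the Smo/Smo arrays the replication genes had medians of 0.03, 0.03 and 0.02, and in wild type of 0.00, -0.01 and 0.00. Of the 31 genes, 25 (80.6%) were highest in replicate 3 among the SmoA2 arrays, against 39.2% of all genes, and 23 were lowest in replicate 2, against 30.2% of all genes. The other 6 peaked in replicate 1 (Orc1, Pola1, Rrm2 and Tyms) or replicate 2 (Cdc6 and Cdk2). The median SD of a replication gene within its group was 0.10 in SmoA2, 0.04 in Smo/Smo and 0.05 in wild type, against 0.11, 0.08 and 0.08 over all genes. Without SmoA2 replicate 3 the median log2 fold change against wild type was 0.036 with 22 of 31 above 0, and without replicate 2 it was 0.132 with 27 above 0. None of the 31 genes was called in limma with any 1 array left out.

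**Figure D4:**
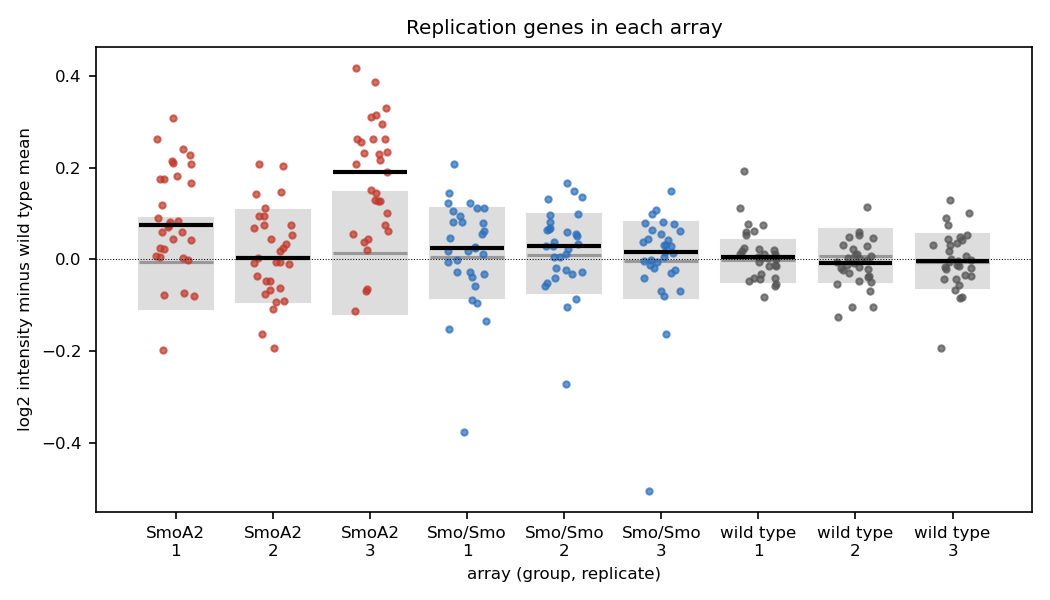
Log2 intensity minus the wild type mean of each gene (y axis) for the 31 replication genes (points) in each array (x axis), with their median as a black line, and the middle 50% and median of all genes as a grey box and line. The genes lie highest in SmoA2 replicate 3, at a median of 0.19, and at 0.00 in SmoA2 replicate 2.

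**Figure D5:**
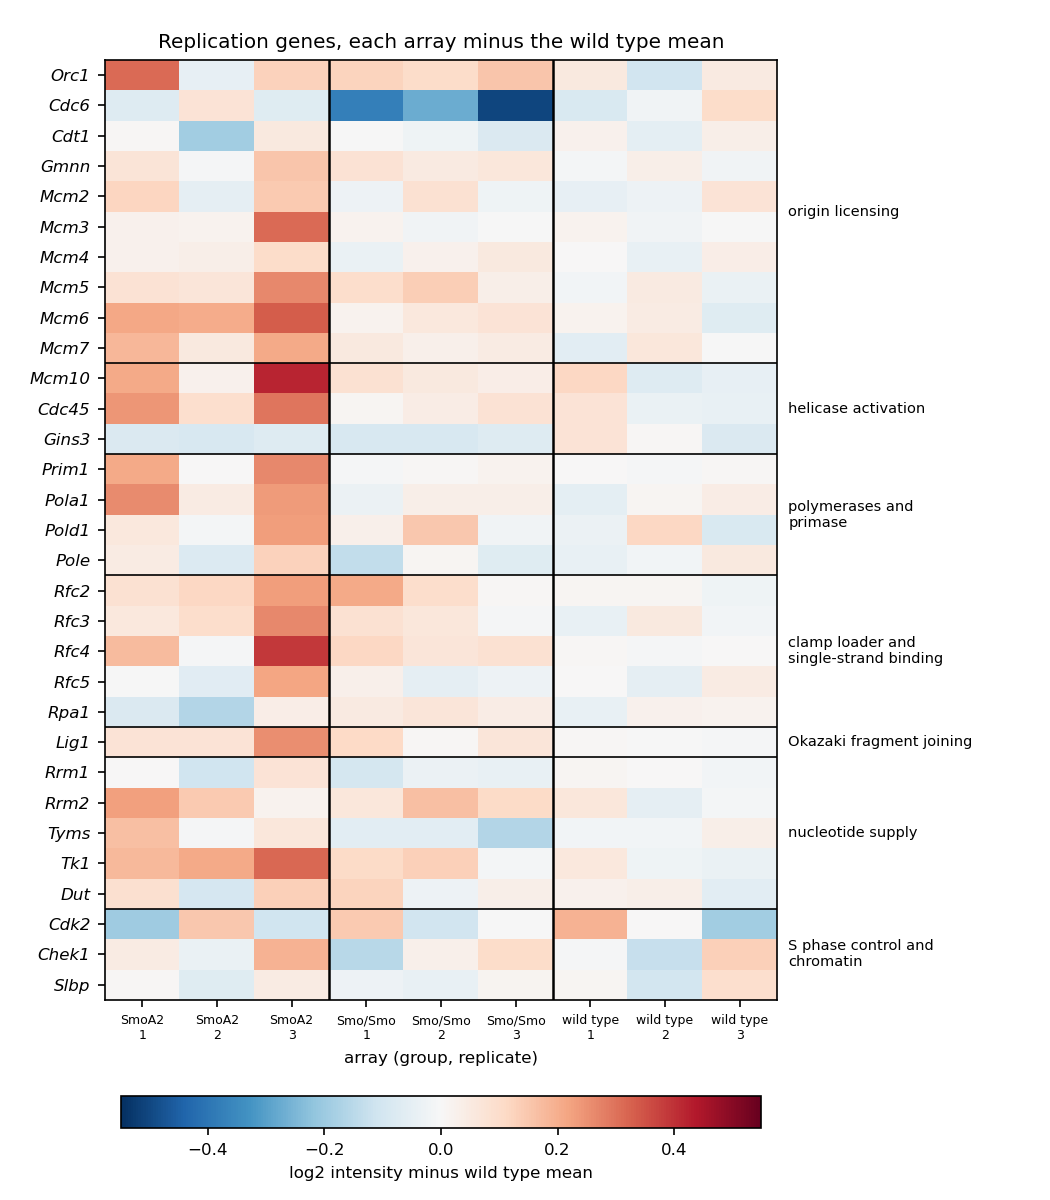
Heat map of log2 intensity minus the wild type mean, with the 31 replication genes as rows, grouped by role, and the 9 arrays as columns. SmoA2 replicate 3 is above 0 in 28 of 31 genes, and Cdc6 is the darkest blue in all Smo/Smo arrays.

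Other measured features of the SmoA2 cerebella moved beside these values, and their part in them was not tested. Of 11 markers of granule neuron progenitors, 6 were called higher in SmoA2 against wild type (Atoh1, Ccnd1, Gli1, Ptch1, Sfrp1 and Boc) and 0 lower. The list's summed intensity was 44462 to 48217 in SmoA2, against 40818 to 42851 in wild type. More progenitors and more RNA of these genes per cell cannot be told apart here. Atoh1, which these progenitors need, stood 0.82 ± 0.07 higher (limma adjusted p = 0.000703), and cyclin D1 (Ccnd1), which drives G1, 0.96 ± 0.15 higher (0.0116), both by more than any replication gene. The list was not uniform, since Ccnd2 (-0.24), Mfap4 (-0.17) and Gli2 (-0.09) had lower means in SmoA2, without a call. Markers of interneuron precursors were called lower in 4 of 5, with summed intensities of 3238 to 3518 in SmoA2 and 4577 to 5023 in wild type. The other, Gad2, was lower too (-0.50) without a call. Meningeal and fibroblast markers were called lower in 5 of 7, with 5656 to 6757 in SmoA2 and 8539 to 8778 in wild type. The rest, Dcn (-0.14) and Lum (0.38), were not called. Endothelial markers were called lower in 2 of 5, with 4571 to 4867 in SmoA2 and 5297 to 5429 in wild type. Cldn5 (-0.20), Pecam1 (0.05) and Flt1 (0.01) were not called. Markers of Bergmann glia and astrocytes were called lower in 1 of 7, with 29379 to 31131 in SmoA2 and 33783 to 35230 in wild type. Choroid plexus markers summed to 7483 to 8839 in SmoA2, 8959 to 10054 in Smo/Smo and 1788 to 5655 in wild type, with 0 of 8 called. The summed markers of postmitotic granule neurons did not overlap either (25908 to 26458 in SmoA2 and 27413 to 27596 in wild type). Nor did those of oligodendrocyte precursors (7977 to 8354 in SmoA2 and 7420 to 7780 in wild type) and microglia (2503 to 3082 in SmoA2 and 2140 to 2329 in wild type). Not every marker followed its sum. Grin2c, a postmitotic marker and the only call in these lists, was higher in SmoA2 (0.64 ± 0.08, limma adjusted p = 0.0045). Cbln1 (0.04), Cspg4 (-0.07), Gpr17 (-0.11) and Tmem119 (-0.03) also ran against the sum of their list, without a call. Sums of some lists cleared wild type in Smo/Smo too. Granule neuron progenitor markers summed to 43079 to 44896 in Smo/Smo and endothelial markers to 5697 to 5906, both above wild type. Meningeal and fibroblast markers summed to 7810 to 8249 and microglial markers to 1840 to 2059, both below it. Apart from these and choroid plexus, the Smo/Smo sums overlapped wild type. Grin2c alone was called in Smo/Smo against wild type. No marker of these 9 lists averaged within the background.

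In Smo/Smo against wild type the differences were small too, apart from Cdc6. None of the 31 was called in limma, where 0.371% of all genes were (0.214% higher and 0.157% lower). At an unadjusted p under 0.05, Cdc6 alone passed (1 of 31, 3.23%), against 8.77% of all genes (4.89% higher and 3.88% lower). The median log2 fold change was 0.042, against 0.006 over all genes, and 22 of 31 lay above 0 (71.0%, against 52.2%). The median was 0.024 without wild type replicate 2 (19 of 31 above 0), 0.027 without wild type replicate 1 and 0.028 without Smo/Smo replicate 3, and 0.02 with array weights or 0.023 with sex as a covariate. Without overlap, 6 genes stood above wild type (Orc1, Gmnn, Rfc4, Rpa1, Lig1 and Rrm2; 19.4%, against 7.82% of all genes) and 3 below it (Cdc6, Rrm1 and Tyms; 9.68%, against 8.12%). Their sizes were small, from 0.05 to 0.12 in the 6 and -0.06 and -0.09 in Rrm1 and Tyms. With Cdc6 set apart, log2 fold changes ran from -0.09 to 0.12. Sample titles give the Smo/Smo mice a code series of their own, while SmoA2 and wild type mice share one, so that origin and genotype cannot be told apart in Smo/Smo.

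The mutants were also set against each other, which tests whether they differ in these genes. Both comparisons with wild type use the same 3 control arrays, so they are not independent of each other. In SmoA2 against Smo/Smo, 0 of 31 were called, against 2.56% of all genes (1.02% higher and 1.54% lower), and 6 passed an unadjusted p under 0.05 in limma (19.4%, against 14.3% of all genes). These were Cdc6, Mcm6, Cdc45, Pola1, Tyms and Tk1, all higher in SmoA2, against 6.2% of all genes. The same 6 stood above Smo/Smo without overlap (19.4%, against 8.12% of all genes), and Rpa1 alone stood below it (3.23%, against 10.1%). The median log2 fold change was 0.07, against -0.003 over all genes, and 27 of 31 lay above 0 (87.1%, against 48.9%). Without SmoA2 replicate 3 the median was 0.014, with 19 of 31 above 0, and without SmoA2 replicate 2 it was 0.115, with 29 above 0. In the moderated F test over the 3 groups 0 of 31 were called, against 2.89% of all genes, with 4 at an unadjusted p under 0.05 (Cdc6, Mcm6, Cdc45 and Tk1). The share of all genes at that unadjusted level was not counted, so the 4 are not read as a result about the list.

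A wider list of 68 other replication genes, of which 59 were measured, served as a neighbourhood for the 31. In SmoA2 against wild type 0 of the 59 were called in limma, against 2.69% of all genes. At an unadjusted p under 0.05 there were 5, all higher (8.47%, against 6.61% of all genes higher and 8.18% lower). The median was 0.047, against 0.006 over all genes, and 46 of 59 (78.0%) lay above 0, against 52.1% of all genes. Shmt1, which feeds one-carbon units to thymidylate synthesis, had 9.42, 9.02 and 9.54 in SmoA2, 9.0, 8.95 and 8.97 in Smo/Smo, and 8.86, 8.83 and 8.81 in wild type. All SmoA2 arrays were highest, again least so in replicate 2, and the difference from wild type was 0.49 ± 0.12 (adjusted p = 0.0621), or 0.65 with a call without that replicate (0.00192). Skp2, the F-box protein that targets the Cdk inhibitor p27, had 9.62, 9.58 and 9.65 in SmoA2, 9.31, 9.43 and 9.31 in Smo/Smo, and 9.45, 9.41 and 9.36 in wild type. SmoA2 stood clear by 0.20 ± 0.06 (adjusted p = 0.127). In the SmoA2 group, 35 of the 59 were highest in replicate 3, against 39.2% of all genes, and 43 lowest in replicate 2, against 30.2%.

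In Smo/Smo against wild type, 0 of the 59 were called, against 0.371% of all genes. At an unadjusted p under 0.05 in limma there were 5, all lower (Ticrr, Pold3, Rnaseh2b, Exo1 and Fbxo5). That was 8.47%, against 3.88% of all genes lower and 4.89% higher. The median was -0.021, and 23 of the 59 lay above 0 (39%, against 52.2% of all genes). Of the 31 listed genes, 22 had done so (71.0%). Rnaseh2b, a subunit of the RNase that removes ribonucleotides from DNA, had 8.41, 8.48 and 8.35 in Smo/Smo, against 8.72, 8.94 and 8.90 in wild type. These did not overlap, and the difference was -0.44 ± 0.10 (adjusted p = 0.179). Rnaseh2b lies on chromosome 14, as do 18 of the 71 genes called in that comparison and 696 of the 19147 genes tested, and the part of this in its value was not tested. Exo1, a 5′ to 3′ exonuclease, had 9.57, 9.27 and 9.65 in SmoA2, 9.0, 8.96 and 9.02 in Smo/Smo, and 9.44, 9.27 and 9.30 in wild type. All Smo/Smo arrays were lowest, by -0.35 ± 0.10 against wild type (adjusted p = 0.273). In SmoA2 against Smo/Smo, 55 of the 59 lay above 0 (93.2%, against 48.9% of all genes), at a median of 0.078. At an unadjusted p under 0.05 in limma there were 10 (16.9%, against 14.3% of all genes). All 10 were higher in SmoA2, where 6.2% of all genes were higher and 8.12% lower at that level. Exo1 was the 1 gene of the 59 called there (1.69%, against 2.56% of all genes), 1.42-fold higher in SmoA2 (0.50 ± 0.10, adjusted p = 0.0307). Leaving out SmoA2 replicate 1 or 3, any 1 of the Smo/Smo arrays, or wild type replicate 2 or 3 ended that call (adjusted p up to 0.117).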

How the data were processed

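Total RNA was amplified to biotin-labelled cRNA for Affymetrix arrays, 1 per mouse, per the labels' protocols. The values deposited by the authors are probe set intensity on a linear scale, summarised by RMA per the submitters' processing notes (no version given). Their log2 was taken before every test. Of 38385 probe sets, 24478 carried 1 gene symbol, 65 several and 13842 none in the platform annotation, giving 19147 genes. The 3 groups were fitted together by limma 3.58.1 (lmFit, then eBayes; R 4.3.3), with Benjamini-Hochberg adjustment over all genes and a threshold of 0.05; it was tested on simulated data. Errors are standard errors of this model, and SD where stated. Precision is limited by the 3 arrays of each group. Smo/Smo and SmoA2 litters are not described in the labels. The p-values set a group difference against the spread between mice within groups, and they cannot separate genotype from litter. The rule for named genes took, in each role, the smallest p of either mutant against wild type, the 3 highest and 3 lowest fold changes of each comparison, and any call. For the wider list it took calls, or the 2 smallest p. The members and lists were chosen with earlier results of these data known. Alternatives were other probe set rules, a filter at a mean log2 of 6, quantile or median normalization, an intensity trend, array weights, sex, other thresholds and arrays left out. Promoters came from RefSeq (GRCm38.p6). Figures used matplotlib 3.10.9 in Python 3.11.15.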

Additional observations from a re-analysis of the deposited data

Results flagged for a closer look

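Exo1 differed between the mutant lines by a direct test (log2 fold change of SmoA2 against Smo/Smo 0.50, limma adjusted p = 0.0307), which is the difference of their effects against the shared wild type arrays. Its other probe sets gave 0.43 (unadjusted p = 0.00669) and -0.04 (0.59). Groups of 3 arrays were too small for a search for outlying arrays.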

How the results depend on the processing

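No paired analysis was possible because the labels give the mice codes and no replicate numbers shared between groups. In Smo/Smo against wild type no alternative gave a call among the listed or the other replication genes. In SmoA2 against wild type, 1 listed gene (Mcm6) and 1 other (Shmt1) were called with genes of low mean left out, with an intensity trend, and at an adjusted p under 0.1, and the F test gave 2, 1 and 1 listed genes. Calls over all genes rose too, to 776 of 12029 with genes of low mean left out and 764 of 19147 with the trend, against 515 in the main fit. Shares of all genes in these settings are not given here for the F test, an adjusted p under 0.1 or an unadjusted p. Listed genes at an unadjusted p under 0.05 numbered 12 with the trend, 3 with only the groups compared and 2 without wild type replicate 3 and SmoA2 replicate 3. With 1 array left out the median ran from 0.036 to 0.132, that number from 4 to 9 and the other genes called from 0 to 1. In SmoA2 against Smo/Smo, 1 listed gene (Cdc6) was called with genes of low mean left out and at an adjusted p under 0.1. The other genes called numbered 4 in those settings and with the trend, and 0 with the mean of probe sets, at an adjusted p under 0.01, with only the groups compared and without both replicates 3. Over all genes, 809 of 12029 were called with genes of low mean left out and 795 of 19147 with the trend, against 490 in the main fit. Listed genes at an unadjusted p under 0.05 numbered 3 with sex as a covariate, 3 without both replicates 3 (median 0.014) and 2 with only the groups compared. With 1 array left out the median ran from 0.014 to 0.115, that number from 2 to 9 and the other genes called from 0 to 3. The counts at an unadjusted p and of genes above 0 were added after the values were seen. Signs turned where differences were near 0: with the mean of probe sets, Gins3 gave 0.01 in SmoA2 and 0.02 in Smo/Smo, and Rpa1 0.02 in SmoA2, all against wild type. Slbp gave 0.03 in Smo/Smo without both replicates 3, and -0.07 to 0.03 with 1 array left out. Cdk2 ran from -0.15 to 0.04 in SmoA2 against wild type and from -0.17 to 0.01 against Smo/Smo, and Cdt1 from -0.06 to 0.07 against Smo/Smo.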

Other observations

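Probe sets of 1 gene did not always give 1 direction, in examples chosen after their values were seen. Pold3, of polymerase delta, stood at -0.19 in Smo/Smo against wild type on the probe set used (unadjusted p = 0.00773 with every probe set tested in limma) and at 0.28 on its other probe set (0.00211). Top1, the topoisomerase that relaxes DNA ahead of the fork, stood at 0.00, 0.01 and -0.48 on its 3 probe sets in that comparison (unadjusted p = 0.939, 0.906 and 0.00963). Nasp, a histone chaperone, agreed between its probe sets, with -0.18 and -0.21 (0.102 and 0.0208). None of these passed the adjusted threshold with every probe set tested.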
